A study of Mus musculus with 21 samples.

Results

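Mice shaved on the back were exposed to UVB light, and its effect on the skin-draining inguinal lymph nodes was read from 12 of the 21 RNA libraries of the series. All inguinal node libraries were used: 6 labelled UVTx and 6 labelled NoTx, and each set held 3 WT and 3 Ifnk TG libraries. UVTx mice received 250 mJ/cm2 of UVB at 310 nm, 3 times per week for 2 weeks, and nodes were taken after a further 2 weeks of observation. NoTx mice were not irradiated. WT mice were BALB/c. Ifnk TG mice carried Ifnk, the gene of the epidermal type I interferon IFN-κ, under the keratin 14 promoter, which drives it in the epidermis and not in lymphocytes. The transgene was made on C57BL/6 and backcrossed to BALB/c. The age of these mice is not given in the sources used here, nor whether UVTx and NoTx mice were of like age. A difference in age between them could not be told apart from an effect of UVB. The labels give neither the mouse nor the sex of a library. A legend of the study describes the UVB-treated node groups as separate mice, and for the NoTx groups, where no source used here says so, the spread between libraries may be technical. Nodes were pressed through a 70 µm strainer before lysis, a step that can hold back connective tissue.

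An inguinal node collects lymph, dendritic cells and antigen from the skin of the flank and lower back. Naive lymphocytes enter it through high endothelial venules, are sorted into T and B cell zones by chemokines made by fibroblastic stroma, and are kept alive there by stromal IL-7. An activated node enlarges, its lymphocytes divide, B cells form germinal centres and switch antibody class, and effector and regulatory T cells change their surface receptors. Interferons leave a readable trace in node RNA. Type I interferons induce Isg15 and the Ifit and Mx genes, while typical targets of IFN-γ, a cytokine of T and NK cells, are the GTPases of the Gbp and Irg families.

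The libraries held between 27599809 and 36428435 gene counts. T and B cell markers were abundant in every library, with the 14 T cell receptor and coreceptor genes summing to between 3715 and 4589 CPM (counts scaled to a common library size) and the 14 B cell genes to between 2429 and 4633 CPM. Of 10 keratinocyte markers 6 did not pass the filter on low counts, among them the defining keratins Krt5 and Krt14. Ifnk had 0 counts in all 12 libraries, so the transgene itself is not read in the node. Ddx3y, a Y-linked gene, had between 2507 and 7084 counts in every library. Xist, the RNA of the inactive X of female cells, had between 3 and 42, so all 12 libraries read as male. On the first principal component, which carried 27.9% of the variance, the 6 NoTx libraries lay between -31.5 and -17.4 and UVTx replicates 7 to 10 between 30.6 and 49.7. TG UVTx replicate 11 lay at 9.71, and TG UVTx replicate 12 at -19.5, among the NoTx libraries. Replicate 12 was kept in every fit unless its removal is named.

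**Figure D1:**
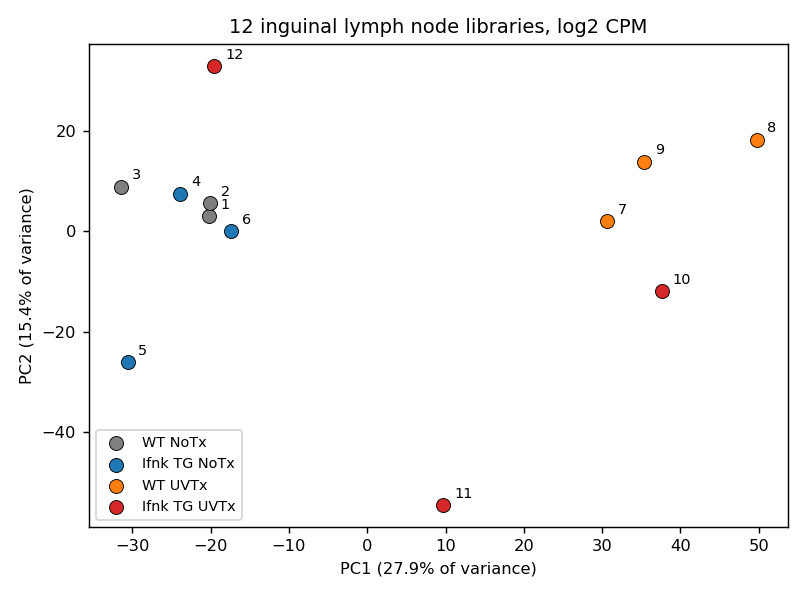
First and second principal components of log2 CPM over the 12 inguinal node libraries, with replicate numbers beside the points and the share of variance on each axis. UVTx replicates 7 to 10 stand apart from all NoTx libraries on the first axis, replicate 11 lies between them, and replicate 12 lies among the NoTx libraries.

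With genotype as a blocking factor, 1243 of 16173 tested genes differed between UVTx and NoTx nodes (7.69%; edgeR quasi-likelihood F-test, Benjamini-Hochberg adjusted p under 0.05), of which 697 (4.31%) were higher and 546 (3.38%) lower in UVTx nodes. At an unadjusted p under 0.05 it was 4528 genes (28%). The split between directions depended on scaling, with 56.1% of the calls higher under TMM and 43.2% under upper-quartile scaling. The response common to both genotypes was counted as the called genes that moved in the same direction in WT and in TG, each at an unadjusted p under 0.05. It held 689 genes (4.26%), 345 higher (2.13%) and 344 lower (2.13%), with median log2 fold changes of 0.54 and -0.93. Falls had the larger median. Of the 345 rises 142 lay higher in all 6 UVTx libraries than in any NoTx library, and of the 344 falls 184 lay lower in all 6, where over all tested genes 1.6% lay wholly above and 1.93% wholly below. These counts describe genes already chosen for their UVB effect, and in bulk RNA fewer cells of a type and less RNA per cell cannot be told apart. Without replicate 12, 3948 of 16616 genes passed the test (23.8%), 2045 higher (12.3%) and 1903 lower (11.5%), and the common response held 1967 genes (11.8%).

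The WT and TG comparisons share no libraries. In WT, 805 genes passed the test (4.98%), 472 higher (2.92%) and 333 lower (2.06%), and in TG 0 passed (0%; edgeR quasi-likelihood F-test), although 1507 (9.32%) reached an unadjusted p under 0.05 there and DESeq2 called 137. Of the 472 genes that rose in WT, 458 (97%) had a higher mean in TG UVTx than in TG NoTx nodes, where 53.8% of all tested genes did, and 160 of them reached an unadjusted p under 0.05 in TG. Of the 333 genes that fell in WT, 314 had a lower mean in TG, 120 of them at an unadjusted p under 0.05. The sizes differed, with a median log2 fold change of 0.66 in WT and 0.27 in TG for the WT rises and of -0.53 and -0.19 for the WT falls. Since these genes were picked in WT, their larger WT values are a description and not a tested difference. Without replicate 12, TG had 236 called genes (1.42%), of which 170 were higher (1.02%) and 66 lower (0.397%). The interaction, which asks whether the 2 genotypes respond differently, called 0 genes (0%) with edgeR, 881 at an unadjusted p under 0.05 (5.45%), and 8 with DESeq2.

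**Figure D2:**
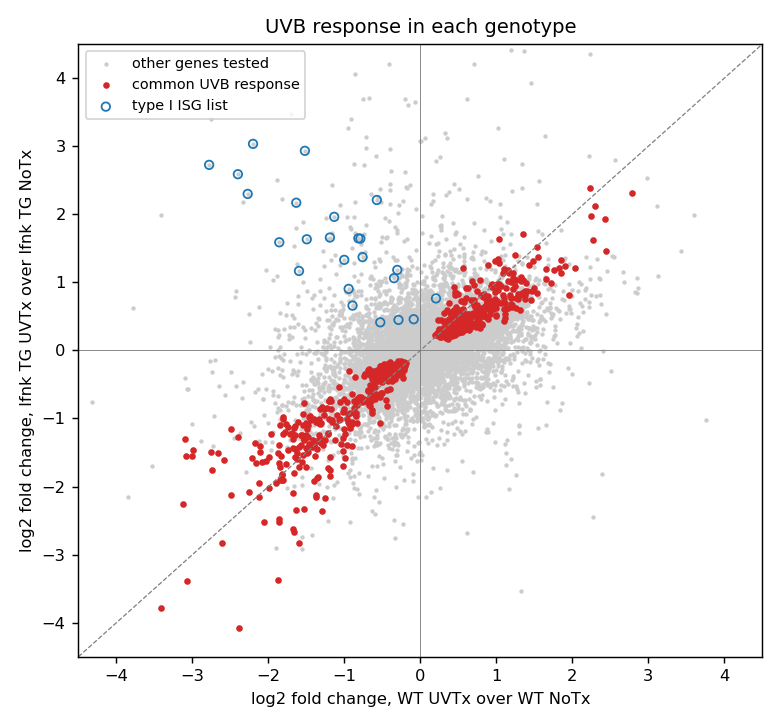
Log2 fold change of each tested gene in WT (horizontal) and in Ifnk TG nodes (vertical), UVTx over NoTx, with the 689 genes of the common response filled in red, the 24 tested type I interferon-stimulated genes ringed in blue and a dashed line of equal change. Both axes end at 4.5, which leaves 26 genes outside. The common genes lie in the 2 quadrants of like direction, as their definition requires, while 23 of the 24 ringed genes have a negative value in WT and a positive one in TG.

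Several genes of the IFN-γ-induced list rose in nodes of both genotypes. Which interferon lay behind these rises was not tested. Of 17 tested genes induced by IFN-γ, 9 rose and 0 fell, all 9 were in the common response, and the list's median log2 fold change was 0.47 (0.36 in WT and 0.70 in TG) against 0.0069 over all tested genes. Without replicate 12, 10 rose and 0 fell. Those that rose were the guanylate-binding proteins Gbp2, Gbp3, Gbp4, Gbp5 and Gbp7, the immunity-related GTPases Igtp, Irgm2 and Iigp1, and Irf1, the transcription factor that relays the IFN-γ signal. Gbp2b, a further guanylate-binding protein named for its small p, rose as well. Cxcl9 and Cxcl10, chemokines of the same programme, had log2 fold changes of -0.09 and -0.34 and did not pass the test (adjusted p = 0.80 and 0.708, edgeR). Ifng itself, whose level was 0.627 CPM in NoTx and 1.25 CPM in UVTx nodes, had a log2 fold change of 0.92 (adjusted p = 0.06, edgeR), and 0.98 without replicate 12 (adjusted p = 0.0266).

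The windows before 5 of the genes that rose together are shown for the interferon elements in them. Each window holds the 250 bases before the RefSeq start of transcription on the gene's own strand in GRCm38.p6, in lower case. Capitals mark the core of the interferon-stimulated response element, GAAA and GAAA with any 2 bases between, and the GAS element, TTC and GAA with any 3 bases between, known binding letters of interferon-activated factors, sought on both strands and allowed to overlap. The Igtp window is chr11:58199306-58199555, that of Irgm2 chr11:58214727-58214976, that of Gbp3 chr3:142559794-142560043, that of Gbp7 chr3:142530086-142530335 and that of Irf1 chr11:53769764-53770013, all on the plus strand.
Igtp: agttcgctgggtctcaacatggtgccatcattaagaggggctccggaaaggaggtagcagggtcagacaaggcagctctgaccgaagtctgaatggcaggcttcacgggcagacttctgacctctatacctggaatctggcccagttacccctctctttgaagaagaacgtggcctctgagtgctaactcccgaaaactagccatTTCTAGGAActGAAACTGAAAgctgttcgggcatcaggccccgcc
Irgm2: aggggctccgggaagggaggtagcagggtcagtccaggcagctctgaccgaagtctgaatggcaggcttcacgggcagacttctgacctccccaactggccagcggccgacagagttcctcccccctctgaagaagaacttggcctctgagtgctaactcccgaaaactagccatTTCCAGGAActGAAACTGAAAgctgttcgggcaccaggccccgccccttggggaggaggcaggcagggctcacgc
Gbp3: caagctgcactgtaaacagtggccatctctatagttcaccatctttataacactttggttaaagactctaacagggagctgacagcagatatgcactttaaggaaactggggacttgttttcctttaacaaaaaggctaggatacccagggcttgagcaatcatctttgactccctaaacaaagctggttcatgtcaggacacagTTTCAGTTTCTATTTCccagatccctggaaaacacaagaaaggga
Gbp7: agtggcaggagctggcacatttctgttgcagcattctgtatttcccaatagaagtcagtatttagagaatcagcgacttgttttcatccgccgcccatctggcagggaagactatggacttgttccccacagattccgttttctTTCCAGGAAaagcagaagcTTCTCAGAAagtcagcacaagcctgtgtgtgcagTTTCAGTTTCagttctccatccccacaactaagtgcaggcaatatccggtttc
Irf1: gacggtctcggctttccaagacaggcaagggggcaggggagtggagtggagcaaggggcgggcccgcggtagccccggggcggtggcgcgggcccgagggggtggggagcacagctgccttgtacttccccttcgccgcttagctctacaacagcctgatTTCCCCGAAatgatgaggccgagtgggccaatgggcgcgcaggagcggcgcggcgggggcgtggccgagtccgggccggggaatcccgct
In Igtp and in Irgm2 a GAS element was followed 11 bases on by a response element core, ending close to the start, and the 2 windows shared an identical run of 55 bases. In the windows shown, Gbp3 had 2 overlapping cores and no GAS element, Irf1 a GAS element and no core, and Gbp7 1 core and 2 GAS elements. Gbp3 and Irf1 each have a further RefSeq window, not shown, which held neither element. Over all 32851 windows of the RefSeq table, 2.98% held the core and 7.02% the GAS element. Of the 14 tested IFN-γ-induced genes with a window, 8 held the core and 6 the GAS element in any of their windows. Of the 17 tested type I interferon-stimulated genes with a window, 8 held the core and 3 the GAS element, so the core was not particular to the IFN-γ-induced list. Among genes of the common response with a window, the core stood in 8.27% of 254 that rose and in 1.67% of 240 that fell, against 3.33% of the 10964 tested genes with a window. A match is only a match of letters and not a site shown to be bound.

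Irgm2 (chromosome 11, 58199618 to 58222782 in GRCm38) measured 109, 141 and 102 CPM in WT NoTx, 103, 76.3 and 109 CPM in TG NoTx, 165, 237 and 189 CPM in WT UVTx and 180, 183 and 166 CPM in TG UVTx nodes. Every UVTx library exceeded every NoTx library, with a log2 fold change of 0.81 ± 0.11 (SE; adjusted p = 0.00467, edgeR). Igtp, whose annotated span of 58199556 to 58207591 overlaps that of Irgm2, rose by 0.76 ± 0.12 (adjusted p = 0.00784, edgeR), and counts of overlapping and closely related GTPase genes may be shared between them. Gbp2b (chromosome 3, 142594847 to 142619179) lay between 61.7 and 104 CPM in NoTx and between 121 and 152 CPM in UVTx libraries, a log2 fold change of 0.77 ± 0.10 (adjusted p = 0.00443, edgeR). It rose by 0.63 in WT and by 0.91 in TG, so neither genotype carried the change alone. Gbp3 lay between 38.5 and 54.7 CPM in NoTx and between 56.9 and 71.7 CPM in UVTx libraries. Irgm2, Igtp, Iigp1, Gbp2b and Gbp3 passed the test in each of the 12 fits that left out 1 library.

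The type I interferon list had medians of opposite sign in the 2 genotypes, a difference for which no gene passed the test. Of its 24 tested genes 0 were in the common response. The list's median log2 fold change was 0.22 over both genotypes, but -0.97 in WT and 1.61 in TG. In WT 23 of 24 genes had a lower mean in UVTx nodes, 7 of them at an unadjusted p under 0.05, and in TG all 24 had a higher mean, 19 of them at an unadjusted p under 0.05. For the difference between genotypes 21 of 24 reached an unadjusted p under 0.05, where 5.45% of all tested genes did, and 0 passed after adjustment (lowest adjusted p = 0.848, edgeR). Ifit1, which binds foreign RNA, had log2 fold changes of -2.40 in WT and 2.59 in TG, and Isg15, a ubiquitin-like modifier, -1.86 and 1.59. The level of the list in a library, the mean log2 CPM of its genes centred over the 12 libraries, was -0.09, 1.56 and 0.85 in WT NoTx and -1.07, -0.69 and 0.55 in WT UVTx nodes, which overlapped. It was -0.73, -0.81 and -0.96 in TG NoTx and -0.39, 1.53 and 0.26 in TG UVTx nodes, which did not. DESeq2's 8 interaction calls included Ifih1, a sensor of viral RNA, Ifit1bl2, Lgals3bp and Phf11a, all with a more positive change in TG. For these 4 edgeR made no call (adjusted p = 0.848 each). The others, Safb, Gm12940, Gm43802 and Gm50387, had a lower log2 fold change in TG than in WT.

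Genes of dividing cells also rose. Of 20 genes of spindle, mitotic kinases and checkpoint, 12 rose and 0 fell, and all 20 had a higher mean in UVTx nodes, with a median log2 fold change of 0.82 (1.05 in WT and 0.60 in TG). Without replicate 12 the counts were also 12 and 0. Of the 12 that rose, 6 were in the common response. All 20 reached an unadjusted p under 0.05 in WT and 6 did in TG, where 26.3% and 9.32% of all tested genes did. The level of the list lay between -1.01 and 0.08 in NoTx and between -0.31 and 1.01 in UVTx libraries, which overlapped. Bub1, a kinase of the spindle checkpoint (chromosome 2, 127801122 to 127831865), measured 3.23, 3.29 and 2.15 CPM in WT NoTx and 2.95, 1.36 and 3.89 CPM in TG NoTx nodes. After UVB it measured 10.6, 6.07 and 5.36 CPM in WT and 7.65, 3.86 and 5.29 CPM in TG nodes, a log2 fold change of 1.19 ± 0.26 (adjusted p = 0.0216, edgeR). The 2 sets overlapped only in TG, where replicate 11 at 3.86 CPM lay just under NoTx replicate 6 at 3.89 CPM. The Bub1 call was lost without WT NoTx replicate 1, WT NoTx replicate 3 or TG UVTx replicate 10 (adjusted p up to 0.0563). Sgo1, which guards sister chromatid cohesion (1.32), Cenpe, a kinetochore motor (1.07), and Prc1, which bundles the central spindle (0.83), passed in each of the 12 fits. So did E2f8, a repressor of the E2F cell cycle programme (1.18), while Neil3, a DNA glycosylase of dividing cells (1.59), was lost without WT NoTx replicate 1, 2 or 3, WT UVTx replicate 7 or 8 or TG UVTx replicate 10.

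Mki67, the proliferation antigen of cell cycle studies, lay between 22.2 and 55.6 CPM in NoTx and between 55.1 and 118 CPM in UVTx libraries and rose by 1.17 ± 0.27 on the log2 scale (adjusted p = 0.0339, edgeR). That call was kept in 3 of the 12 fits without 1 library, those without TG NoTx replicate 6 and TG UVTx replicates 11 and 12 (adjusted p up to 0.0804 in the others). Of 21 DNA replication genes 4 rose and 0 fell, with a median of 0.25, and 2 were in the common response. They were Tyms, which makes thymidylate (0.79), Rrm2, a subunit of ribonucleotide reductase (0.91), Mcm10, a replication initiation factor (1.07), and Prim1, a primase subunit (0.38). Tyms passed in each of the 12 fits, and the other 3 in 2 or 3 of them. Without replicate 12, 5 replication genes rose and 0 fell.

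The windows before 2 mitosis genes that rose are shown for their CCAAT boxes, the sites of NF-Y, which are typical of such promoters. Capitals mark the CCAAT box. They also mark the CHR element, TTTGAA. Both were sought on both strands, so their reverse complements are in capitals too. Top2a, the topoisomerase that untangles chromosomes, has its window at chr11:99024190-99024439, and that of Bub1 is chr2:127831860-127832109, both on the minus strand.
Top2a: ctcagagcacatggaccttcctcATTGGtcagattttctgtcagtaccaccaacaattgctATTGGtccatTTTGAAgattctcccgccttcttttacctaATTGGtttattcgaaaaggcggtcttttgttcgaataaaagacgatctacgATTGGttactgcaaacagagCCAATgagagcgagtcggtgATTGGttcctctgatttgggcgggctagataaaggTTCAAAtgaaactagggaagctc
Bub1: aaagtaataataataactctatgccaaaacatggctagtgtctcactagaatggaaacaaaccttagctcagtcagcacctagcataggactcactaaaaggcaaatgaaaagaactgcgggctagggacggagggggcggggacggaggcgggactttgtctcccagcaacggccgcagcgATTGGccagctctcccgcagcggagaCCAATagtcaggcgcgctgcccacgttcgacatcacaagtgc
Top2a held 6 CCAAT boxes and 2 CHR elements, and Bub1 held 2 and none. A CCAAT box stood in 15 of 17 mitosis genes with a window, against 40.1% of the tested genes with a window and 33.8% of all windows. For CHR the counts were 8 of 17, 13.4% and 16%. The CCAAT box stood in 43.3% of the common rises and in 39.2% of the common falls.

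**Figure D3:**
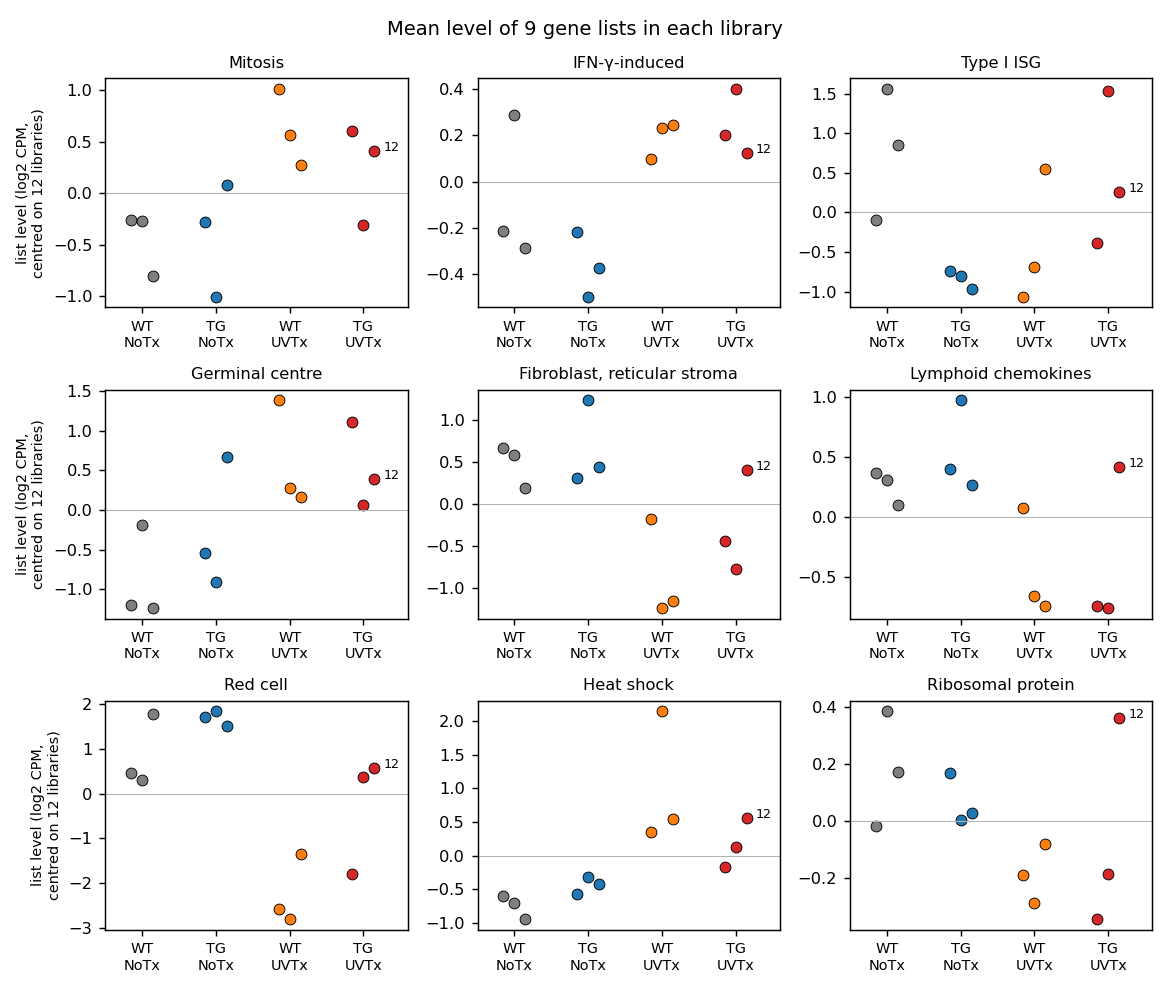
Level of 9 gene lists in each of the 12 libraries, as mean log2 CPM of the tested members centred over the libraries, by genotype and treatment, with TG UVTx replicate 12 marked. The mean heat shock level is higher in every UVTx than in every NoTx library, type I interferon-stimulated genes overlap between WT NoTx and WT UVTx nodes and are higher in TG UVTx than in TG NoTx nodes, and replicate 12 lies with the NoTx libraries for stroma, lymphoid chemokines and ribosomal proteins.

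Of 12 immunoglobulin constant region genes 2 rose, Ighg1 and Igha, of which only Ighg1 was in the common response. Neither passed without the low-count filter, nor Igha with Xist as a covariate, without the genotype term or with voom. Ighg1, the constant region of IgG1, measured 4.89, 11.9 and 2.98 CPM in WT NoTx and 9.08, 2.55 and 12.2 CPM in TG NoTx nodes. In UVTx nodes it measured 85.9, 24.9 and 25.7 CPM in WT and 72.1, 24.4 and 21.8 CPM in TG. All 6 UVTx libraries lay above all 6 NoTx libraries, with a log2 fold change of 2.55 ± 0.58 (adjusted p = 0.0347, edgeR), although the call was kept only without WT NoTx replicate 2, TG NoTx replicate 6 or TG UVTx replicate 11 or 12 (adjusted p up to 0.0839 in the other 8 fits). Igha, of IgA, rose by 1.53 (adjusted p = 0.047, edgeR, kept without TG UVTx replicate 10 or 12 only), and Ighe, of IgE, had a log2 fold change of 2.62 (adjusted p = 0.0582) and passed without replicate 12 (adjusted p = 0.0391). The other 9 of 12 constant regions did not pass, among them Ighm at 0.04, Ighd at -0.12 and Igkc at 0.02. BALB/c mice and the C57BL/6 reference differ at the heavy chain locus, so constant region counts may be incomplete.

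All 9 germinal centre genes had a higher mean in UVTx nodes, with a median log2 fold change of 1.13 (1.67 in WT and 0.53 in TG), and 0 of them passed the test (adjusted p from 0.0638 to 0.261, edgeR). Mybl1, a transcription factor of these cells, stood at 1.63 and Bcl6, the master factor of germinal centre B cells, at 0.39. Mybl1 passed without replicate 12 (adjusted p = 0.0391). The level of the list lay between -1.24 and 0.67 in NoTx and between 0.06 and 1.39 in UVTx libraries, which overlapped through TG NoTx replicate 6. Of 14 B cell identity genes 2 rose, Cr2, the complement receptor CD21 (0.42), and Cd72, an inhibitory coreceptor (0.33), and the list's median was -0.02. Both calls were kept without TG NoTx replicate 4 or TG UVTx replicate 11 or 12, and that of Cr2 also without TG NoTx replicate 5, but in no other of the 12 fits. Cd72 did not pass with upper-quartile scaling, without the low-count filter, in the averaged 4-group contrast or with voom. Of 10 plasma cell genes 0 passed, with a median of 0.08.

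Several genes of activated and regulatory T cells rose. Nt5e, the ectoenzyme CD73 that makes adenosine (chromosome 9, 88327197 to 88372092), measured 14.0, 13.5 and 10.9 CPM in WT NoTx and 13.1, 11.9 and 14.7 CPM in TG NoTx nodes. It measured 28.2, 29.4 and 25 CPM in WT UVTx and 19.9, 19.7 and 28.1 CPM in TG UVTx nodes, a log2 fold change of 0.94 ± 0.11 (adjusted p = 0.00374, edgeR). Replicate 12 lay with the other UVTx libraries here, all of them above every NoTx library. Penk, which encodes the enkephalin precursor (chromosome 4, 4133531 to 4138819), lay between 0.965 and 2.32 CPM in NoTx and between 3.38 and 6.25 CPM in UVTx libraries and rose by 1.53 ± 0.19 (adjusted p = 0.00374, edgeR), by the same amount in WT (1.53) and in TG (1.52). Itgae, the integrin CD103 that holds T cells and dendritic cells to epithelium, rose by 0.79 ± 0.12 (adjusted p = 0.00784, edgeR).

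These 3 genes were the called members of 11 regulatory T cell genes, of which 3 rose and 0 fell, with a median of 0.25. That median was 0.37 in WT and 0.04 in TG, and -0.18 in TG without replicate 12. Over both genotypes without replicate 12, 3 rose and 1 fell. Foxp3, the factor that defines regulatory T cells, had a level of 55.7 CPM in NoTx and 59.5 CPM in UVTx nodes and a log2 fold change of 0.09 (adjusted p = 0.651, edgeR). Il2ra stood at 0.27 and Ctla4 at 0.55, and neither passed. Penk, Nt5e and Itgae are also made by cells other than regulatory T cells. Icos, a costimulatory receptor of activated and follicular helper T cells (chromosome 1, 60977927 to 61000320), lay between 29.4 and 46.2 CPM in NoTx and between 51.1 and 85.1 CPM in UVTx libraries and rose by 0.90 ± 0.14 (adjusted p = 0.00848, edgeR). Il21, the helper cytokine of germinal centres, rose by 1.69 (adjusted p = 0.034, edgeR, kept without TG NoTx replicate 4, WT UVTx replicate 9 or TG UVTx replicate 11 or 12 only). Both belong to 6 tested follicular helper genes, whose other members included Cxcr5 at 0.14 and Pdcd1 at 0.14. The median of these 6 was 0.27 in WT and 0.17 in TG, and -0.10 in TG without replicate 12.

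Cxcr3, the receptor for IFN-γ-induced chemokines, rose by 0.56 ± 0.10 (adjusted p = 0.0101, edgeR), with 19.4 to 27.1 CPM in NoTx and 27.8 to 44.2 CPM in UVTx libraries. Among 14 cytotoxic and type 1 effector genes it was the 1 that rose, and Ccl5, a chemokine of effector T cells, was the 1 that fell (-0.71; kept without WT NoTx replicate 3, TG NoTx replicate 6 or TG UVTx replicate 12 only). Lax1, an adaptor that restrains lymphocyte receptor signalling, rose in both genotypes, with 63.8 to 86.0 CPM in NoTx and 94.7 to 127 CPM in UVTx libraries (log2 fold change 0.57 ± 0.07, adjusted p = 0.00374, edgeR). Penk, Nt5e, Itgae, Icos, Cxcr3 and Lax1 passed in each of the 12 fits without 1 library.

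Genes of naive T cells gave mostly small negative values. Of 10 naive T cell genes 2 fell and 1 rose, with a median of -0.19, and 7 fell and 1 rose without replicate 12. Ccr7, the receptor that brings T cells to the T zone, had 417 to 499 CPM in NoTx and 330 to 398 CPM in UVTx libraries, which did not overlap, and fell by 0.31 on the log2 scale (SE 0.07, adjusted p = 0.0189, edgeR; lost without WT NoTx replicate 1 or 3 or WT UVTx replicate 9). S1pr1, the exit receptor, fell by 0.28, and Il7r, the receptor for IL-7, rose by 0.54. Neither passed without the low-count filter. S1pr1 passed only without TG UVTx replicate 11 or 12 among the 12 fits, and Il7r was lost without any 1 WT NoTx library, TG NoTx replicate 4 or 6 or WT UVTx replicate 8 or 9. Of 14 T cell receptor and coreceptor genes 2 fell, Trbc1 (-0.27, kept in 4 of the 12 fits) and Cd5 (-0.25), and 8 fell without replicate 12, while Cd5 passed only in that fit among the 12.

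Several genes made by lymphoid stroma fell. Il7, the survival cytokine of naive lymphocytes (chromosome 3, 7569994 to 7613760), measured 2.63, 3.29 and 2.49 CPM in WT NoTx and 2.46, 6.47 and 2.74 CPM in TG NoTx nodes. It measured 0.781, 0.473 and 0.490 CPM in WT UVTx and 0.640, 0.80 and 1.32 CPM in TG UVTx nodes. All UVTx libraries lay below all NoTx libraries, replicate 12 included, and the log2 fold change was -2.16 ± 0.28 (adjusted p = 0.00374, edgeR). Of the 10 homeostatic chemokines, receptors and survival factors 4 fell and 1 rose, with a median of -0.92, and without replicate 12 7 fell and 0 rose. Cxcl13, which draws B cells into follicles, fell by 1.75 (adjusted p = 0.0178, edgeR), and Cxcl12 by 1.66 (adjusted p = 0.0411, kept without WT UVTx replicate 7 or TG UVTx replicate 12 only). Ccl19 and Ccl21a, the T zone chemokines, had log2 fold changes of -0.96 and -1.42 and did not pass (adjusted p = 0.175 and 0.0529), and both passed without replicate 12 (adjusted p = 0.018 and 0.0134). Tnfsf11, the cytokine RANKL, was the member that rose (0.57), a call lost without replicate 12 (adjusted p = 0.0557).

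All 9 fibroblast and reticular stroma genes had a lower mean in UVTx nodes, with a median of -1.24 (-1.26 in WT and -0.80 in TG). Of these 2 fell, the matrix proteoglycans Dcn (-1.50) and Bgn (-1.35), each kept without WT UVTx replicate 7 or TG UVTx replicate 12 only, and 7 fell without replicate 12, collagens Col1a1, Col1a2 and Col3a1 among them. The level of the list lay between 0.18 and 1.24 in NoTx libraries, between -1.25 and -0.18 in UVTx replicates 7 to 11, and at 0.40 in replicate 12. Among the largest falls of the common response were Prrx1, a mesenchymal transcription factor (-2.14), Dpt, the matrix protein dermatopontin (-1.99), Meox1, a homeobox factor (-2.11), and Nfatc4, a calcium-regulated transcription factor (-2.18). In each of these 4 all UVTx libraries lay below all NoTx libraries, and each passed in all 12 fits without 1 library. Stmn2, a microtubule regulator best known in neurons, fell by 1.92 (lost without WT UVTx replicate 9, adjusted p = 0.054). The share of stroma that passed the strainer was not measured in these files, and its part in the falls was not tested.

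Glycam1, the sulphated mucin by which high endothelial venules capture naive lymphocytes (chromosome 15, 103562759 to 103565081), measured 4.62, 7.31 and 7.83 CPM in WT NoTx and 8.70, 10.9 and 7.38 CPM in TG NoTx nodes. It measured 3.30, 2.62 and 1.87 CPM in WT UVTx and 3.46, 2.92 and 4.28 CPM in TG UVTx nodes and fell by 1.34 (SE 0.18, adjusted p = 0.00442, edgeR), by 1.34 in WT and by 1.33 in TG. The groups did not overlap. It was the 1 called member of 6 venule genes, whose median was -0.98, and Chst4, which sulphates such mucins, had -1.18 (adjusted p = 0.081) and passed without replicate 12 (adjusted p = 0.0357). Of 10 blood endothelial genes 3 fell, Clec14a (-1.41), Egfl7 (-1.22) and Pecam1 (-0.27), and 1 was in the common response. The list's median was -0.49, with -1.03 in WT and -0.07 in TG, and 3 of the 10 genes had opposite signs in the 2 genotypes. At an unadjusted p under 0.05, 5 fell in WT and 1 in TG. Among the 12 fits without 1 library Clec14a, Egfl7 and Pecam1 all passed without TG UVTx replicate 11 or 12. Besides these, Clec14a passed without TG NoTx replicate 4 or 6, Egfl7 without WT NoTx replicate 3, TG NoTx replicate 6 or WT UVTx replicate 7, and Pecam1 without TG NoTx replicate 5, and in no other. Clec14a did not pass without the genotype term, nor Egfl7 with voom. The level of Cdh5, the endothelial cadherin, was 6.57 CPM in NoTx and 6.51 CPM in UVTx nodes. Of 7 lymphatic genes 0 fell and Reln rose (1.01, kept without TG NoTx replicate 6 or TG UVTx replicate 11 or 12 only), with a median of -0.67, and 4 fell without replicate 12.

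**Figure D4:**
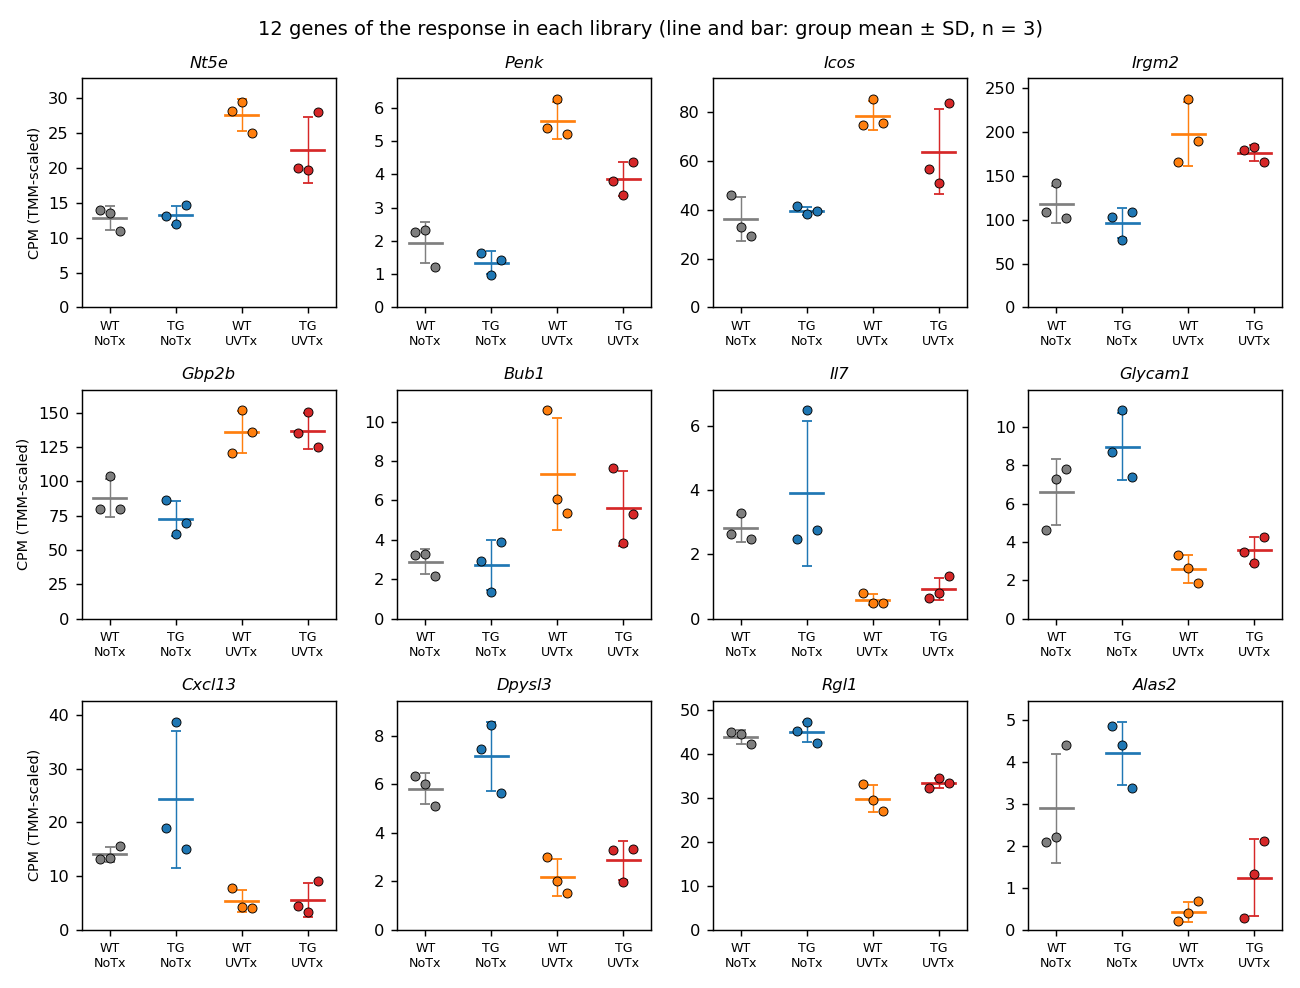
CPM of 12 genes in each library, by genotype and treatment, with the group mean and SD (n = 3) as line and bar and axes from 0. Nt5e, Penk, Icos, Irgm2 and Gbp2b are higher, and Il7, Glycam1, Cxcl13, Dpysl3 and Rgl1 lower, in every UVTx than in every NoTx library, while Bub1 and Alas2 overlap.

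Several of the steadiest falls had no list. Pdlim4, an actin-associated LIM protein, lay between 35 and 43.0 CPM in NoTx and between 24.5 and 31.8 CPM in UVTx libraries and fell by 0.57 (SE 0.07, adjusted p = 0.00374, edgeR). Rgl1, an effector of Ras-like GTPases, lay between 42.1 and 47.2 CPM in NoTx and between 26.8 and 34.4 CPM in UVTx libraries and fell by 0.50 (SE 0.06, adjusted p = 0.00374, edgeR). Dpysl3, a cytoskeletal protein of the collapsin response family, fell by 1.37 (SE 0.19, adjusted p = 0.00459, edgeR). Neither genotype carried these alone, with WT and TG values of -0.60 and -0.54 for Pdlim4, -0.56 and -0.43 for Rgl1 and -1.42 and -1.32 for Dpysl3. Ccl22, a chemokine of mature dendritic cells, fell by 0.63 (adjusted p = 0.0178, edgeR), and with Fscn1, which bundles actin in them (-0.48, kept without the same 3 libraries as Ccl5 only), was 1 of 2 called members of 10 migratory dendritic cell genes. Cd207, the Langerhans cell marker langerin, had 1.44 CPM in NoTx and 1.55 CPM in UVTx nodes. Resident dendritic cell, macrophage, monocyte and MHC class II genes gave 0 calls among 9, 13, 6 and 10 tested genes, and without replicate 12 gave 0, 3, 1 and 2.

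Red cell genes had the steepest falls of any list. All 6 tested genes fell, with a median of -2.20 (-2.99 in WT and -1.51 in TG), and all 6 fell without replicate 12. Alas2, the first enzyme of haem synthesis in red cell precursors, measured 2.08, 2.20 and 4.39 CPM in WT NoTx and 4.84, 4.40 and 3.37 CPM in TG NoTx nodes. It measured 0.210, 0.40 and 0.674 CPM in WT UVTx and 0.291, 1.32 and 2.11 CPM in TG UVTx nodes, a log2 fold change of -2.21 ± 0.42 (adjusted p = 0.0155, edgeR). Replicate 12 at 2.11 CPM overlapped the NoTx range. The list as a whole summed to between 122 and 309 CPM in NoTx and between 10.8 and 151 CPM in UVTx libraries, and the haemoglobin genes Hba-a2 (-2.24) and Hbb-bs (-2.20) kept their calls only without replicate 12 and, for Hba-a2, also without TG UVTx replicate 11. Haemoglobin genes are close copies of each other, so their counts may be shared. The part of blood carried in the tissue was not tested.

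Neutrophil genes were low throughout, with 7 of 14 tested and a summed level between 6.15 and 19.9 CPM in NoTx and between 3.66 and 17.9 CPM in UVTx libraries. Their median log2 fold change was -0.87 with 0 calls, and without replicate 12 it was -2.04 with 5 falls. The highest level of this list among UVTx libraries was that of replicate 12. Ly6g, Mpo and Elane, which define the lineage, did not pass the filter.

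The mean level of the heat shock list was higher in every UVTx library, while 5 of its 11 genes were each higher in every UVTx than in every NoTx library. The list level lay between -0.95 and -0.32 in NoTx and between -0.17 and 2.15 in UVTx libraries, with a median log2 fold change of 0.88 (1.16 in WT and 0.33 in TG, and 0.12 in TG without replicate 12), and 3 rose and 0 fell. Hsph1, a chaperone of the Hsp110 family, measured 78.8, 75.7 and 58.6 CPM in WT NoTx, 88.4, 106 and 91.5 CPM in TG NoTx, 228, 905 and 373 CPM in WT UVTx and 181, 123 and 214 CPM in TG UVTx nodes. It rose by 1.84 ± 0.47 (adjusted p = 0.0454, edgeR), and the call was kept without WT UVTx replicate 8 or TG UVTx replicate 11 or 12 only. Hspa8 (0.89) and Hsp90ab1 (0.61), both constitutive chaperones, also rose. Both calls were lost without WT NoTx replicate 1, 2 or 3 or WT UVTx replicate 9, that of Hsp90ab1 also without TG NoTx replicate 4, and both without the low-count filter. Hspa1a, the inducible Hsp70, had a level of 0.180 CPM in NoTx and 8.21 CPM in UVTx nodes and did not pass (log2 fold change 4.82, adjusted p = 0.0664; 0.0407 without replicate 12). WT UVTx replicate 8 was the highest library of the list.

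Ribosomal protein genes and nuclear RNA-binding genes had medians of opposite sign, and replicate 12 lay apart from the other UVTx libraries in both. All 80 tested ribosomal protein genes had a lower mean in UVTx nodes (median -0.24, 0 calls), and 77 fell without replicate 12. Their median was -0.38 in WT and -0.08 in TG, and at an unadjusted p under 0.05, 55 fell in WT and 0 in TG. Of 72 respiratory chain genes 1 fell (median -0.17, with -0.30 in WT and -0.04 in TG), and 43 fell without replicate 12. At an unadjusted p under 0.05, 40 of the 72 fell in WT and 0 in TG, where 18 had a higher mean in UVTx nodes. Of 17 nuclear RNA-binding genes and nuclear RNAs 4 rose (median 0.34, with 0.48 in WT and 0.15 in TG), and 10 rose without replicate 12. Of the 4 that rose, 1 was in the common response. For the difference between genotypes 4 of the 17 reached an unadjusted p under 0.05 (lowest adjusted p = 0.848, edgeR). Safb was a DESeq2 interaction call (TG minus WT -0.77, adjusted p = 0.0126). Hnrnpa2b1 passed in 8, Safb in 7 and Safb2 in 3 of the 12 fits without 1 library. Sfpq, a paraspeckle protein, lay between 227 and 333 CPM in NoTx and between 396 and 496 CPM in UVTx libraries and rose by 0.59 ± 0.09 (adjusted p = 0.00754, edgeR), in each of the 12 fits. Ribosomal proteins took between 6.72% and 8.88% of the counts in NoTx libraries, between 5.47% and 6.31% in UVTx replicates 7 to 11 and 8.05% in replicate 12. The part of RNA quality or handling in these shifts was not tested.

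**Figure D5:**
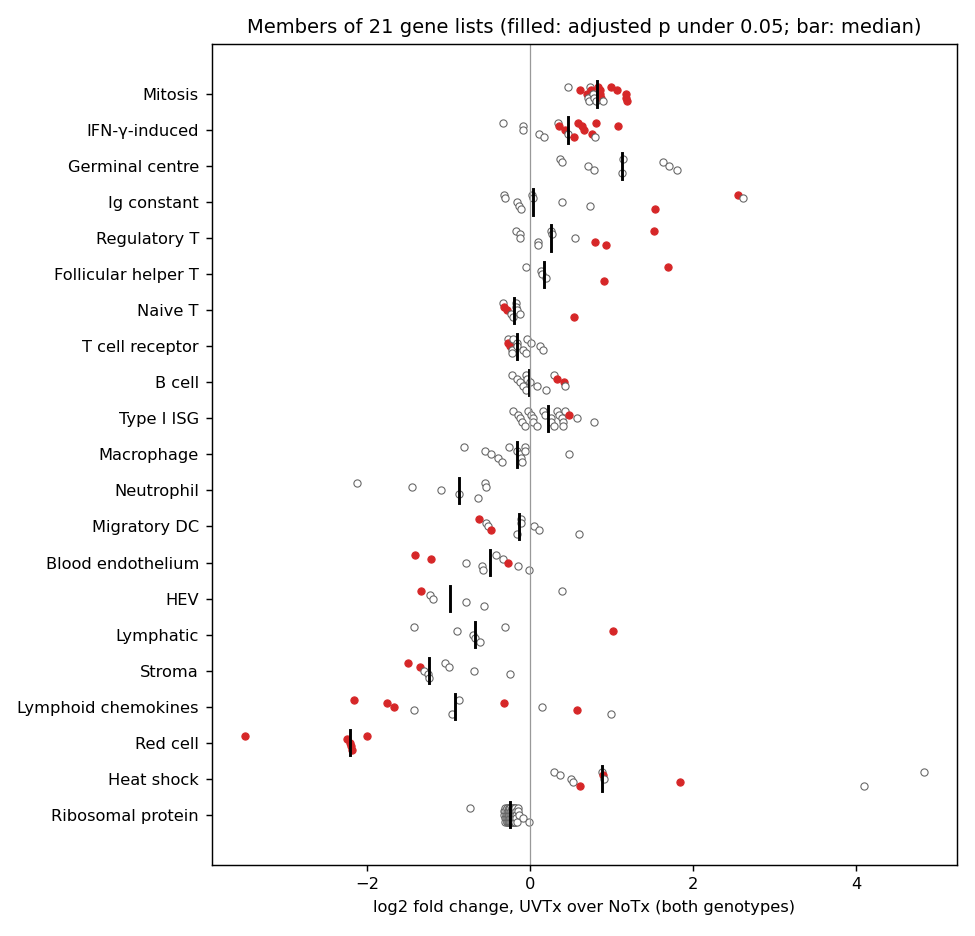
Log2 fold change over both genotypes (UVTx over NoTx) of each tested member of 21 gene lists, filled where the adjusted p was under 0.05, with a bar at each list's median. Mitosis and IFN-γ-induced genes lie mostly right of 0, and red cell, stroma and lymphoid chemokine genes mostly left of it.

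The remaining large rises of the common response were spread over functions. Erdr1, a gene of the X and Y pseudoautosomal region with close copies, had 0.576 to 2.32 CPM in NoTx and 1.47 to 8.17 CPM in UVTx libraries and rose by 2.21 ± 0.39 (adjusted p = 0.0136, edgeR). Lmo7, a LIM domain protein (1.61), and Fndc9, a fibronectin domain protein (1.21), lay higher in every UVTx than in every NoTx library. So did Apol9b, an interferon-responsive apolipoprotein L gene (1.19), whose highest value, 15.6 CPM, was in replicate 12. Ltk, a receptor tyrosine kinase (1.19), was lost without WT NoTx replicate 1, 2 or 3, WT UVTx replicate 8 or 9 or TG UVTx replicate 10, and the other 4 in none of the 12 fits.

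Fewer genes passed whichever library was left out. The 12 fits share most of their libraries with each other and with the common response, so their overlap is a description and not independent support. Of the 1243 genes called over both genotypes, 240 passed in each of the 12 fits, 107 higher and 133 lower, and 238 of these 240 were among the 689 of the common response. Without WT UVTx replicate 9 the count of called genes was 321, and without replicate 12 it was 3948, of which 1235 were among the 1243.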

How the data were processed

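The 12 inguinal node libraries were analysed. Per the submitters' processing notes and the study's methods, poly-A RNA was sequenced as 151 bp read pairs, and the authors trimmed reads with cutadapt 4.8, aligned them to GRCm38 with STAR 2.7.8a and quantified genes with RSEM 1.3.3. FastQC 0.11.8 and MultiQC 1.20 were used for quality checks. The deposited values are expected counts, already whole numbers, and the annotation release is not given in the sources used here. The study tested with DESeq2. Here edgeR 4.0.16 (TMM, robust quasi-likelihood F-test, R 4.3.3) was fitted on all genes left by filterByExpr (minimum count 10, total 15), with genotype and treatment as terms, since the files hold estimated counts. A 4-group fit gave the WT, TG and interaction contrasts, and p-values were adjusted by Benjamini-Hochberg over all 16173 genes. CPM used TMM library sizes. A count of 3 was 8.24e-06% to 1.09e-05% of a library, which covers counting error only. DESeq2 1.42.0, limma 3.58.1 voom, other scalings and filters, an Xist covariate and leaving out libraries were alternatives. Rows for cre, egfp, mcherry and tdtomato held 0 counts and were left out. On simulated data the fit recovered 48.4%, 64.1% and 89.2% of genes changed by 0.5, 1 and 2 on the log2 scale over 15895 genes, with 7.19% of calls false. The simulated counts were drawn independently, with no genotype effect and no library apart from its group as replicate 12 is. These rates therefore check the procedure and are not error rates of the real calls.

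Named genes were the 10 largest rises and 10 largest falls of the common response (protein coding, mean of at least 1 CPM in the higher group), the 5 smallest adjusted p in each direction, and up to 4 called members of each list, or the 2 highest in CPM where none was called. Other list members are named as examples, after their values were seen. Members, lists and rules were chosen with earlier results of these data known. Promoter windows came from RefSeq (GRCm38.p6). Some items are not reported here.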

Additional observations from a re-analysis of the deposited data

Results flagged for a closer look

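Of 302 sets of 6 libraries tested (151 measures in NoTx and in UVTx nodes), 30 had 1 library far from the other 5 by Dixon's test, where chance gives about 1 in 20. List levels are centred mean log2 CPM, and gene levels are log2 CPM. TG NoTx replicate 5 accounted for 10. It had the lowest B cell level (-0.647) and the highest macrophage (0.807), blood endothelial (1.13) and lymphoid chemokine (0.972) levels of the NoTx libraries, as well as the highest Cxcl13 (5.28), Cxcl12 (5.07), Il7 (2.71), Dpt (3.28), Csf1r (4.8) and Timd4 (5.76). Without this library Il7, Cxcl13 and Dpt still passed the test, and Cxcl12 did not.

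TG UVTx replicate 12 accounted for another 10. Among UVTx libraries it was highest in neutrophil (1.49), ribosomal protein (0.36) and ER secretory (0.262) levels and in Cd5 (7.90), Rps4x (11.6), Rpsa (11.9), Pkm (9.59) and Gapdh (9.13). It was lowest in skeletal muscle (-1.47) and Tnnt3 (-4.04), a muscle troponin with 0 counts in it.

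WT NoTx replicate 2 was highest in IFN-γ-induced genes (0.289) and lowest in immediate early (-0.25) and clock genes (-0.266) and in Pacsin1 (5.90). WT NoTx replicate 3 was lowest in Hspa8 (9.50) and highest in S1pr1 (9.34). WT UVTx replicate 8 was highest in heat shock genes (2.15) and Irgm2 (7.89), WT UVTx replicate 7 in cholesterol genes (0.251), and TG UVTx replicate 11 was lowest in Cr2 (8.41).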

How the results depend on the processing

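No paired analysis was possible because the UVTx and NoTx groups share no replicate numbers. Over both genotypes 1243 genes passed the test. DESeq2 called 2344 (1278 higher, 1066 lower), with 2002 in WT, 137 in TG and 8 for the interaction. At an adjusted p under 0.01, 68 remained past the threshold (37 higher, 31 lower), and 3 passed a test against a log2 change of 0.5 (1 higher, 2 lower). With Xist as a covariate the WT count was 171 in place of 805. Xist had between 3 and 42 counts in libraries that all read as male, so this covariate does not stand for sex. The counts over both genotypes ran from 882 without a low-count filter to 1398 without the genotype term under the other scalings, filters and designs, and limma voom called 1078. Upper-quartile scaling gave 539 higher and 709 lower genes. Leaving out each library in turn gave 321 (without WT UVTx replicate 9) to 3948 genes (without TG UVTx replicate 12), 136 to 2045 higher and 154 to 1903 lower. Counts under 1243 by over 1.5 times also followed the removal of WT NoTx replicate 1 (336), 2 (533) or 3 (339), TG NoTx replicate 4 (688) or 6 (802), WT UVTx replicate 7 (749) or 8 (375) and TG UVTx replicate 10 (398). In WT the range was 0 (without WT UVTx replicate 8) to 2644, in TG 0 to 236, for the interaction 0 to 1 (without WT NoTx replicate 3), and for the common response 288 (without TG UVTx replicate 10) to 1967. Leaving out TG UVTx replicates 11 and 12 together, a choice made after seeing the data, gave 4311 genes (2480 higher, 1831 lower), 2733 in WT, 644 in TG and 2141 in the common response. That setting moved the medians of red cell, neutrophil and blood endothelial genes to -3.13, -1.78 and -0.96. The cause of these shifts was not tested. No called named gene changed direction under any alternative run, while some that were not called, Gapdh (-0.12 to 0.03) and Csf1r (-0.19 to 0.06) among them, crossed 0 when 1 library was left out. At these depths the neutrophil and venule lists rest on genes of a few CPM, where counting error is largest.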

Other observations

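Several other programmes gave few calls. Of 10 tested p53 target genes, which respond to DNA damage, 0 passed, with a median log2 fold change of 0.12. Of 14 immediate early genes, which respond within minutes to stimulation, 0 passed (median 0.06), and the same held for 14 glycolysis genes (median -0.05) and 12 cholesterol synthesis genes (median -0.09). Of 16 circadian clock genes 2 fell, Dbp (-0.33) and Nr1d1 (-0.51), both outputs of the clock. Dbp passed in 5 and Nr1d1 in 2 of the 12 fits without 1 library, both of them without TG UVTx replicate 11 or 12, and neither passed without the low-count filter, nor Nr1d1 without the genotype term. Arntl and Per1 had log2 fold changes of 0.14 and 0.20 and did not pass. The hour of tissue collection is not given in the sources used here.

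Of 13 genes of the secretory pathway Hsp90b1, the chaperone of the endoplasmic reticulum, rose (0.37, 427 to 484 CPM in NoTx and 513 to 664 CPM in UVTx libraries), a call lost without WT UVTx replicate 9 (adjusted p = 0.0508, edgeR). Of 7 mast cell genes 1 fell, the tryptase Tpsab1 (-1.94, kept in 4 of the 12 fits), at 0.45 CPM in NoTx and 0.106 CPM in UVTx nodes. Of 5 plasmacytoid dendritic cell genes 0 passed, with a median of -0.01. Adipocyte genes gave 0 calls among 4 tested (median -1.42), and their summed level lay between 4.52 and 20.6 CPM in NoTx and between 1.56 and 47.8 CPM in UVTx libraries.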
